A study of Homo sapiens with 4 samples.

Results

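The nuclear ribosomal RNA (rRNA) precursor was examined through the crosslink sites that iCLIP placed in CH507-513H4.1 (ENSG00000278996) and CH507-528H12.1 (ENSG00000280441). These long noncoding RNA labels on the plus strand of chromosome 21 cover copies of the 45S rRNA precursor. They were chosen because their summed scores were already known to be higher in the PDCD4 list than in the IgG list, so that difference is given as a description. Every site whose gene label held either identifier was taken, which gave 214 of the 158922 PDCD4 sites and 12 of the 111361 IgG sites. The cells were wild-type MCF10A, an established non-transformed breast epithelial line, crosslinked with UV light and immunoprecipitated with an antibody to PDCD4 or with control IgG, with 2 replicates each. PDCD4 is an RNA-binding tumour suppressor known as an inhibitor of the helicase eIF4A.

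The authors merged the replicates and deposited 1 list of sites per immunoprecipitation, so no spread between replicates and no test between PDCD4 and IgG can be given. Each site is 1 nt wide, and its score is the raw number of cDNAs counted there. The PDCD4 list summed to 409308 cDNAs and the IgG list to 276139. All intervals are 95% and cover counting error only. The methods state that, ahead of peak calling, IgG positions were taken out of the PDCD4 replicates. The deposited lists nevertheless share 3 precursor positions, so how far this subtraction applies to these values is not known, and where applied it would lower PDCD4 sums. The 10 fixed markers of mammary epithelium were all listed, led by KRT7, LAMB3 and KRT5, and none of 5 markers of other cells was.

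In the nucleolus, RNA polymerase I transcribes rRNA genes into a long precursor that carries 18S, 5.8S and 28S rRNA in this order. The 5′ external transcribed spacer (5′ETS), the internal spacers ITS1 and ITS2 and the 3′ETS lie around and between them. Nucleases, helped by guide RNAs, cut these spacers away. 18S rRNA enters the small ribosomal subunit, and 5.8S and 28S rRNA enter the large one. Mature rRNA is far more abundant than the spacers in cells, and rRNA abundance was not analysed here.

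The 10 PDCD4 sites with the highest scores are shown first, since a few short stretches hold most of the cDNAs, followed by the highest PDCD4 sites of 18S rRNA and ITS2 and by an IgG site whose position is also in the PDCD4 list. Each sequence is read from the plus strand of GRCh38 with T for U, has 29 nt, and has the crosslinked base in capitals. Positions in a part of the precursor are counted from its first base in RefSeq.
28S position 2458, RNA45SN2, chr21:8216331-8216359, PDCD4 score 24: gggcgagcgccgttCtgaagggacgggcg
28S position 4763, RNA45SN3, chr21:8401674-8401702, PDCD4 score 20: agccggtcccccgcCtgtccccgccggcg
5′ETS position 2990, RNA45SN2, chr21:8208963-8208991, PDCD4 score 19: gcccgggccggggcCtcggccccggtcgc
ITS1 position 1070, RNA45SN2, chr21:8212555-8212583, PDCD4 score 19: ccaaatcgacctcgTacgactcttagcgg
5.8S position 83, RNA45SN2, chr21:8212639-8212667, PDCD4 score 19: tgaattgcaggacaCattgatcatcgaca
28S position 4833, RNA45SN3, chr21:8401744-8401772, PDCD4 score 15: cgcgtgccccgccgCgcgccgggaccggg
28S position 4865, RNA45SN3, chr21:8401776-8401804, PDCD4 score 14: cggtgcggagtgccCttcgtcctgggaaa
28S position 4855, RNA45SN3, chr21:8401766-8401794, PDCD4 score 12: gaccggggtccggtGcggagtgcccttcg
5.8S position 84, RNA45SN2, chr21:8212640-8212668, PDCD4 score 11: gaattgcaggacacAttgatcatcgacac
28S position 2426, RNA45SN2, chr21:8216299-8216327, PDCD4 score 11: agttgaacatgggtCagtcggtcctgaga
18S position 485, RNA45SN2, chr21:8210101-8210129, PDCD4 score 10: gcagcaggcgcgcaAattacccactcccg
ITS2 position 793, RNA45SN2, chr21:8213506-8213534, PDCD4 score 3: tccccggcggcgacCcgcgggacgccgcg
28S position 3476, RNA45SN3, chr21:8400387-8400415, IgG score 5: cctcctcggcgcgcGgcggcggcggcggc

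Both genes together held 772 cDNAs (exact Poisson interval 718 to 828) in the PDCD4 list and 32 (21.9 to 45.2) in the IgG list. Per 10000 cDNAs of a list, PDCD4 had 18.9 (17.6 to 20.2) and IgG had 1.16 (0.793 to 1.64). The ratio of these shares, with 1 cDNA added to each sum, was 15.8-fold (11.2 to 22.4), or 3.98 on the log2 scale (3.48 to 4.48). CH507-513H4.1 held 127 sites with 471 cDNAs against 5 sites with 11, a log2 ratio of 4.73 (3.90 to 5.56). CH507-528H12.1 held 87 sites with 301 cDNAs against 7 sites with 21, a log2 ratio of 3.21 (2.59 to 3.84). Both passed a log2 ratio of 1, as did 18.8% of the 9594 genes with at least 10 cDNAs over the lists. The genes were chosen on this contrast, so their count says nothing further. Of those 9594 genes, 0.98% had a higher ratio than both precursor genes together, 0.313% than CH507-513H4.1 alone and 2.90% than CH507-528H12.1 alone. Like the count, this rank is a description only, since the genes were chosen on the ratio. The median of all genes was -0.08.

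The precursor sites held both more single-cDNA sites and more high scores than the rest of the PDCD4 list. A score of 1 was found at 75 sites (35.0%, exact binomial interval 28.7% to 41.8%), compared with 7.41% of the 158708 other PDCD4 sites. Scores over 10 were found at 10 sites (4.67%, 2.26% to 8.43%), compared with 0.171% of the others. The median score was 2 and the highest 24. The 42 sites with a score greater than 5, the threshold stated in the methods, held 399 of the 772 cDNAs. No IgG precursor site exceeded a score of 5, where 3 of the 4980 IgG cDNAs at such sites would be the limit that a count of 0 allows. On that basis the PDCD4 share at this threshold was at least 34.3-fold higher.

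**Figure D1:**
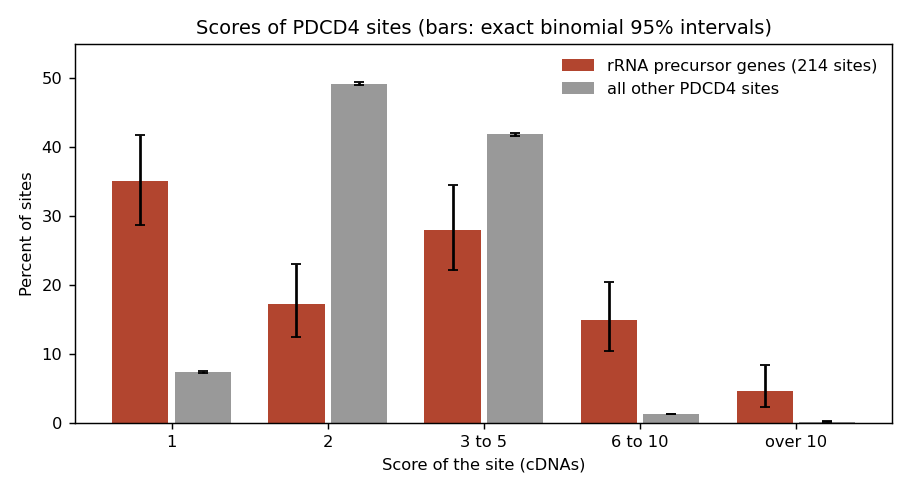
Percent of PDCD4 sites (vertical axis) in each class of score in cDNAs (horizontal axis) for the 214 precursor sites and the 158708 other sites. Error bars are exact binomial intervals, and the precursor sites stand higher at a score of 1 (35.0% against 7.41%) and over 10 (4.67% against 0.171%).

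All precursor sites of both lists lay on the transcribed strand inside a precursor copy, and none lay in an exon that GENCODE release 44 annotates for these long noncoding RNAs. Mature rRNA held 656 PDCD4 cDNAs at 185 sites, a share of 85.0% (exact binomial interval 82.3% to 87.4%), on 53.2% of the length of the precursor. The spacers held 116 cDNAs at 29 sites. Per length, this was 92.7 cDNAs per 1000 nt (Poisson interval 85.7 to 100.03) in mature rRNA and 18.6 (15.4 to 22.3) in spacers, with both copies summed over the lengths of RNA45SN2. When sites within 20 nt were joined and each of the 34 clusters counted once, 67.6% had their highest site in mature rRNA.

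**Figure D2:**
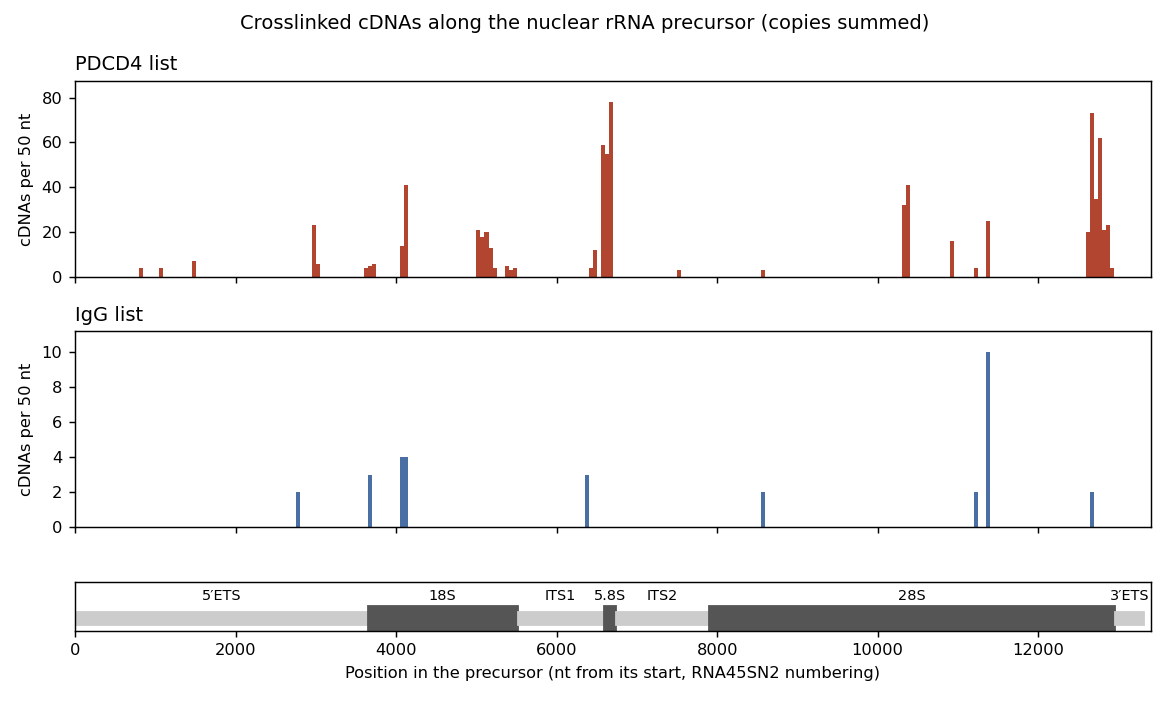
cDNAs per 50 nt (vertical axes, scaled separately) against the position in the precursor in nt, with the PDCD4 list above, the IgG list in the middle and the parts of the precursor below (dark, mature rRNA). PDCD4 cDNAs gather around 5.8S rRNA, in 18S rRNA and near the end of 28S rRNA, and the IgG list has 32 cDNAs in all.

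28S rRNA held the most cDNAs, 359 at 93 sites (46.5%, 42.9% to 50.1%), on 38.0% of the length. 18S rRNA followed with 154 at 47 sites (19.9%), and 5.8S rRNA with 143 at 45 sites (18.5%, 15.8% to 21.4%) on 1.18% of the length. The 19.9% and 18.5% do not differ beyond their intervals. Per 1000 nt, 5.8S rRNA had 911 cDNAs (768 to 1073), 18S rRNA 82.4 (69.9 to 96.5) and 28S rRNA 71.0 (63.9 to 78.8). The intervals of 18S and 28S overlap and that of 5.8S lies above both. These values leave out 299 cDNAs at matching sites of other genes. Most of those match 28S (RYR2 65, HFM1 52) or 5.8S (RNA5-8SP6 93), and 10 match 18S. The order of 18S and 28S therefore holds only for sites labelled with the precursor genes. ITS1 had 60.7 cDNAs per 1000 nt (65 cDNAs), the 5′ETS 13.2 (48 cDNAs) and ITS2 2.59 (3 cDNAs at 1 site). The 3′ETS, the shortest spacer at 361 nt, had no listed site. For listed cDNAs, this allows up to 3 by counting error.

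**Figure D3:**
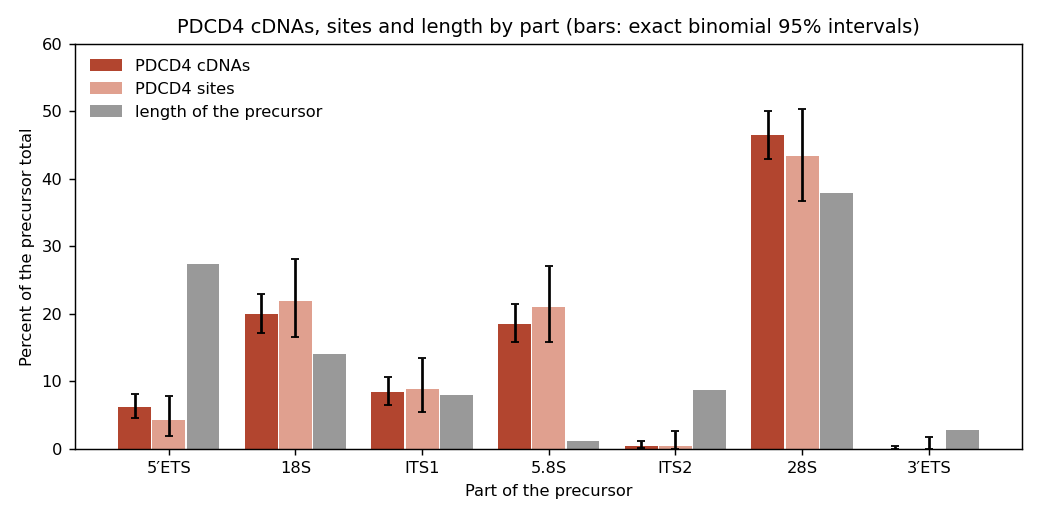
Percent of the precursor total (vertical axis) of PDCD4 cDNAs, PDCD4 sites and length for each part of the precursor, with exact binomial intervals as error bars. 5.8S rRNA stands out with 18.5% of cDNAs on 1.18% of the length, and the 5′ETS lies below its length with 6.22% of cDNAs on 27.4%.

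The cluster with the most cDNAs ran from the end of ITS1 into 5.8S rRNA, the short RNA that pairs with 28S rRNA and whose 5′ ends are known to differ by several nucleotides between its forms. Its 53 sites at chr21:8212562-8212670 held 192 cDNAs, 24.9% of the total. Within 5.8S rRNA, the positions 51 to 100 held 109 cDNAs at 28 sites and the positions 1 to 50 held 34 at 17 sites. No site was listed from position 101 to 157. Sites labelled RNA5-8SP6, outside these genes, matched positions 58 to 68 with 93 cDNAs and a highest score of 29. Within these genes the highest scores, 19 and 11, lay next to each other at positions 83 and 84, and the positions 71 to 84 held 66 cDNAs. Of the sites in this stretch, 9 carried the second label RNA5-8S5. These boundaries, and those used below for 18S and 28S rRNA, were chosen after the values were seen.

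Upstream of 5.8S rRNA, 8 of the last 9 positions of ITS1 were listed, with 49 cDNAs. The highest was ITS1 position 1070, the base before the last one, with 19 cDNAs, followed by position 1065 with 9 and position 1071, the last base, with 8. In the same copy the 1062 nt of ITS1 before them held 6 cDNAs at 5 sites. Counting the last 9 nt with 5.8S rRNA would raise the mature share from 85.0% to 91.3%. The IgG list held no site in 5.8S rRNA or in these 9 nt.

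**Figure D4:**
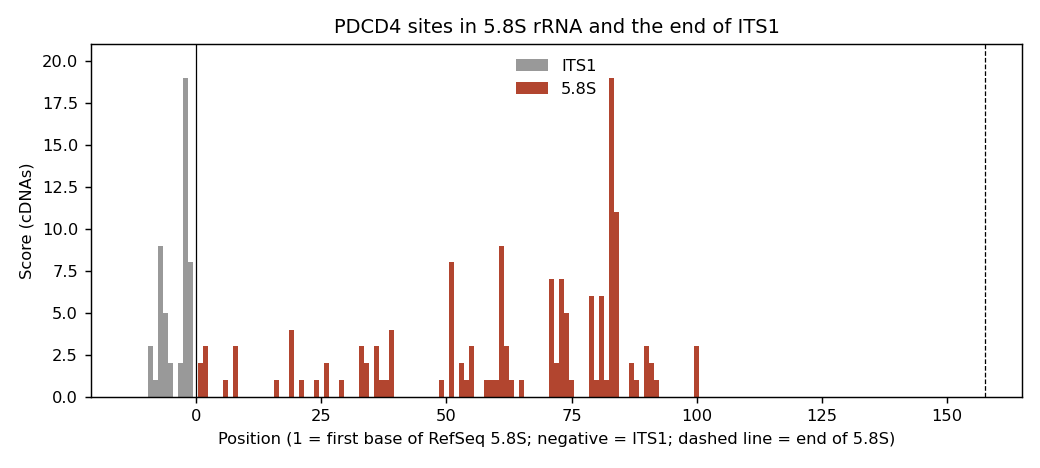
Score in cDNAs (vertical axis) of each PDCD4 site by position in nt from the start of 5.8S rRNA in RefSeq (horizontal axis), with ITS1 in grey, 5.8S in red and the dashed line at its end. The tallest bars have 19 cDNAs, at the base before the last one of ITS1 and at position 83, and none follows position 100.

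In 28S rRNA, the core of the large subunit, the last 320 nt of the copy RNA45SN3 held 66 sites with 238 cDNAs, 30.8% of all precursor cDNAs. The remaining 4735 nt of that 28S copy held 53 cDNAs at 15 sites. The highest sites of the end were position 4763 with 20 cDNAs, position 4833 with 15, position 4865 with 14 and position 4855 with 12. The last site lay 33 nt before the end of 28S rRNA, and the corresponding gaps were 37 nt in 18S and 57 nt in 5.8S rRNA. In RNA45SN2 the last 320 nt held no site. The IgG list had 1 site with 2 cDNAs in this end of RNA45SN3.

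**Figure D5:**
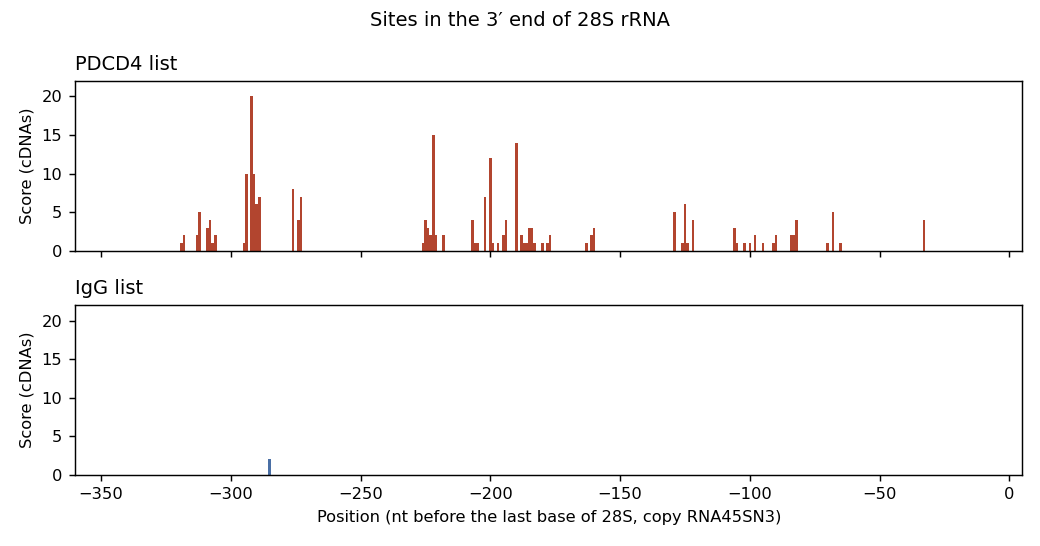
Score in cDNAs (vertical axes) of each site in the end of 28S rRNA in the copy RNA45SN3 against nt before its last base (horizontal axis), for PDCD4 above and IgG below. The PDCD4 list has 66 sites with a maximum of 20 in the last 320 nt, and the IgG list has 1 site with a score of 2.

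A further group in 28S rRNA lay between positions 2401 and 2500, with 73 cDNAs at 14 sites in the 2 copies. It includes the highest precursor site, position 2458 in RNA45SN2 with 24 cDNAs, and position 2426 with 11. Only 3 cDNAs at 1 site lay in the first 2400 nt of 28S rRNA in these genes, while sites labelled LLNLF-96A1.1 matched positions 1923 to 1931 with 23 cDNAs. In 18S rRNA, the RNA of the small subunit, positions 1301 to 1700 held 76 cDNAs at 25 sites and positions 401 to 500 held 55 at 14 sites. No site of these genes lay between positions 501 and 1300, while 3 sites labelled ANKRD30BL matched positions 593 to 1007 with 10 cDNAs. Its highest site, position 485, had 10 cDNAs, and the same base had 2 in the IgG list.

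In the spacers, the 5′ETS, which lies before 18S rRNA and is removed during its maturation, had 9 sites. Position 2990 held 19 of its 48 cDNAs, position 3044 held 6, and the others had 1 to 4. The ITS1 sites outside the last 9 nt all lay between positions 938 and 952, at 5 sites in RNA45SN2 and 6 in RNA45SN3, with 6 and 10 cDNAs. ITS2, which separates 5.8S from 28S rRNA, had the site at position 793 alone.

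The 12 IgG sites were spread over 18S (5 sites, 11 cDNAs), 28S (5 sites, 16 cDNAs), the 5′ETS (1 site, 2 cDNAs) and ITS1 (1 site, 3 cDNAs). The highest were 28S positions 3463 and 3476 with 5 cDNAs each, 18S position 414 with 4, and 18S position 43 and ITS1 position 863 with 3 each. At 3 positions a PDCD4 site was listed as well, with 6 PDCD4 cDNAs at 28S position 3476, 10 at 18S position 485 and 1 at 18S position 482. With positions aligned to RNA45SN2 and both copies pooled, 10 of the 12 IgG sites had a PDCD4 site within 20 nt. Of the 214 PDCD4 sites, 34 (15.9%) had an IgG site as near. The lists differ in size and the share over all listed sites was not calculated, so these counts are descriptions only.

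Which copy of the precursor a cDNA came from was not resolved. RefSeq places 3 copies on chromosome 21 of GRCh38, RNA45SN2 (chr21:8205988-8219302), RNA45SN3 (chr21:8389035-8402343) and RNA45SN1 (chr21:8433222-8446572), and 2 on scaffolds. RNA45SN3 is 99.4% identical to RNA45SN2 over the precursor, and their 18S, ITS1 and 5.8S are identical. The 30 nt after a PDCD4 site occurred a median of 8 times in the genome, and once for 4 of the 214 sites. All sites of CH507-513H4.1 lay in RNA45SN2 and all of CH507-528H12.1 in RNA45SN3, with none in RNA45SN1 and no site of either list on a scaffold. The span of CH507-528H12.1 in release 44 includes RNA45SN1, but the release 88 span used by the authors was not analysed here.

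The parts were listed in different copies. All 18S, 5.8S, 5′ETS and ITS2 sites of the PDCD4 list were in RNA45SN2, whereas RNA45SN3 held 81 of the 93 sites of 28S rRNA with 291 of its 359 cDNAs. Of the 66 sites in the end of 28S rRNA, none had following 30 nt that occurred once in the genome, and 21 did when scaffolds were left out. At the same aligned position, 6 of the 127 sites in RNA45SN2 (4.72%) also had a site in RNA45SN3, which is 6.90% of the 87 there. The mature share was 77.5% in RNA45SN2 and 96.7% in RNA45SN3. Only 172 positions of 28S rRNA over both copies had following 30 nt that occurred once in the genome, and these held 32 cDNAs at 4 sites, all in RNA45SN2.

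PDCD4 sites lay next to each other in many places. Of the 212 gaps between neighbouring sites of a copy, 96 were 1 nt, and the 5 largest of the 34 clusters held 467 cDNAs (60.5%). At the crosslinked base, C was found at 32.7% of sites, G at 26.6%, U at 24.3% and A at 16.4%. Positions drawn from the same parts in the same proportions would be 31.7% C, 33.5% G, 17.9% U and 16.9% A. Over the whole PDCD4 list U was the most frequent base (46.7%), in parts of the genome with another base composition. Weighted by score, C rose to 40.7% of the precursor cDNAs and U was 22.9%, beside 32.1% and 17.6% for positions of the same parts. Over the 42 sites with a score greater than 5, C was 38.1%. The mature rRNAs differed in this. C was at 44.7% of sites in 18S (26.7% of its positions), 33.3% in 28S (33.3%) and 20.0% in 5.8S rRNA (28.7%).

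Genes of the rRNA pathway were described from lists chosen with earlier results known. Of 13 measured genes of the RNA polymerase I machinery, 3 had a log2 ratio of at least 1 and 1 of -1 or less, with a median of -0.08, the value of all genes. Over all 9594 genes these shares were 18.8% and 18.1%. POLR1A, the largest subunit, had 119 PDCD4 cDNAs against 43 (log2 ratio 0.88), the TBP-associated factor TAF1D 118 against 76 (0.06), and the upstream binding factor UBTF 50 against 11 (1.52). Of 30 measured genes for processing proteins, 8 were at 1 or more and 1 at -1 or less, with a median of 0.49, beside the same 18.8% and 18.1% over all genes. Nucleolin (NCL) had 482 cDNAs against 64 (2.33), the nucleolar chaperone NPM1 143 against 102 (-0.08), and the box C/D protein NOP58 132 against 38 (1.20).

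Among 7 measured RNAs of precursor cleavage (guide RNAs and RMRP), 5 were at 1 or more and 2 at -1 or less, against 18.8% and 18.1% of all genes. Of the 5, 4 had no IgG cDNA and were measured through the PDCD4 list alone, so this count is a description only. SNORD3A, a gene of the U3 RNA needed to release 18S rRNA, had 178 cDNAs against 3 (log2 ratio 4.92, interval 3.49 to 6.35). Further U3 genes had too few cDNAs to be measured. SNORD3B-2 had 0 PDCD4 cDNAs against 4, SNORD3B-1 had 5 against 0 and SNORD3D had 3 against 0. The ratio is therefore that of SNORD3A alone, and a ratio over all U3 genes was not calculated. SNORD118, the U8 RNA needed for 5.8S and 28S rRNA, had 106 cDNAs against none, at least 23.8-fold higher with IgG set at 3 cDNAs. RMRP, the RNA of the endonuclease MRP that cuts ITS1, had 15 against 50 (-2.24). The list's median was 3.13, or 1.43 with the 4 genes that had no IgG cDNA set at their bounds. Among rRNA genes found by symbol, the mitochondrial 16S rRNA MT-RNR2 had 3742 cDNAs against 55 (5.49).
Per 1000 nt, MT-RNR2 had 2400 PDCD4 cDNAs (2324 to 2478) and the mitochondrial 12S rRNA MT-RNR1 had 361 (323 to 401). Both were above the 92.7 listed for nuclear mature rRNA, and MT-RNR2 was above the 911 listed for 5.8S rRNA. The nuclear values leave out 299 matching cDNAs of other genes, 93 of them at RNA5-8SP6. How cDNAs that match several copies were placed is not known, so nuclear and mitochondrial values are not like measures. MT-RNR1 had 344 cDNAs against 123, a log2 ratio of 0.91 (0.61 to 1.20). The nuclear precursor genes (3.48 to 4.48) were chosen on this ratio, so the difference is a description only.
Among 794 genes with at least 100 PDCD4 cDNAs, those with the nearest log2 ratio over the 2 lists were HSPD1 (4.02), a mitochondrial chaperonin, WDR6 (3.90), the cytolinker PLEC (3.90), the nucleolar factor NOC2L (4.36) and TMEM107 (3.54), whose transcript overlaps SNORD118.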

How the data were processed

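PDCD4 and IgG iCLIP of MCF10A cells was analysed as deposited. The authors mapped reads to Ensembl release 88 with iCount and deposited 1 list per group with the 2 replicates merged. The methods describe a subtraction of IgG sites from the PDCD4 replicates, then merging, before peaks were called, but 3 precursor positions are in both lists. Alignment, multi-mapping and cDNA collapsing settings are not given in the sources used here. The deposited scores are counts of cDNAs at single nucleotides, with no scaling. They start at 1, so the score threshold of 5 stated in the methods is not applied in the files. Total counts were 409308 for PDCD4 and 276139 for IgG.

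The members and gene lists were chosen with earlier results of these data known. Sites were placed in the 45S copies of the RefSeq annotation of GRCh38, with spacers taken as the sequence between the mature rRNAs, and copies were aligned with mafft 7.526. The 30 nt after each site were counted in the genome on both strands. Counts have exact Poisson intervals and shares exact binomial (Clopper-Pearson) intervals at 95%. Gene ratios are log2 ratios of list shares with a pseudocount of 1, over genes with at least 10 cDNAs, and sites with several labels count for each gene. Since each group is 1 pooled list, no test was run. A count of 0 listed cDNAs was given a limit of 3 counts, which does not cover cDNAs left out by peak calling. Named were the members, the 10 highest PDCD4 and 5 highest IgG sites, the highest PDCD4 site of each part, 3 genes of every gene list by PDCD4 cDNAs, and 5 genes of nearest ratio. RNA5-8S5, the further U3 genes, further single sites and genes with matching sites were chosen after seeing their values. As alternatives, the score threshold was 5 or 10, or numbers of sites, a pseudocount of 5, other totals, merged clusters, single copies or genes, and positions found once were used. The calculations were tested on simulated data. Scripts ran in Python 3.11.15 (scipy 1.17.1, numpy 2.4.6, pandas 2.3.3), with figures drawn in matplotlib 3.10.9.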

Additional observations from a re-analysis of the deposited data

Results flagged for a closer look

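Sites outside the precursor genes were listed where the following 30 nt match a precursor copy on the transcribed strand, a signal that the comparisons above do not use. The PDCD4 list held 75 such sites with 299 cDNAs in 8 genes, or 7.31 per 10000 cDNAs. The IgG list held none, which allows up to 0.109 per 10000 (3 cDNAs), so the PDCD4 share of listed cDNAs was at least 67.2-fold higher. RNA5-8SP6, a 5.8S pseudogene on chromosome Y, had 93 cDNAs at 11 sites, matching positions 58 to 68 of 5.8S rRNA, with a highest score of 29. These 11 sites were all the PDCD4 sites listed on that chromosome, where the IgG list had 1 site with 3 cDNAs, not in RNA5-8SP6. The other matches were mostly to 28S rRNA. RYR2 had 65 cDNAs at 9 sites, with a highest score of 41, above every site in the precursor genes, matching 28S positions 3729 to 3814. HFM1 had 52 cDNAs at 21 sites (28S positions 4154 to 4451), AAMDC 29 at 15 sites (3676 to 3810) and SLCO5A1 25 at 12 sites (3860 to 3891). LLNLF-96A1.1 had 23 cDNAs at 3 sites (28S positions 1923 to 1931). ANKRD30BL had 10 cDNAs at 3 sites that match 18S rRNA (positions 593 to 1007), and MIR663AHG had 2 at 1 site that matches the 5′ETS. From the following 30 nt, cDNAs of these genes and of the precursor cannot be told apart.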

How the results depend on the processing

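The log2 ratio of 3.98 for both genes stayed above 0 under every alternative run. The genes were chosen on this contrast, so its sign is no support. The ratio left its counting interval with scores greater than 5 (a lower bound of 5.10). With scores greater than 10 only a lower bound of 0.053 could be given, which does not place the ratio inside or outside the interval. No IgG precursor site remained at either threshold, and 7 other IgG sites had a score over 10. The ratio also left the interval for CH507-513H4.1 alone (4.73) and CH507-528H12.1 alone (3.21). The mature share of 85.0% moved to 67.6% with each cluster counted once, the tied largest cluster as ITS1. It was 77.5% in RNA45SN2 and 96.7% in RNA45SN3. Counting the last 9 nt of ITS1 as 5.8S rRNA, a choice made after seeing the data, gave 91.3%. With scores greater than 5, mature rRNA had 47.7 and spacers 9.78 cDNAs per 1000 nt, since fewer cDNAs were counted. At positions whose next 30 nt occur once, 28S rRNA had 186 cDNAs per 1000 positions, from 32 cDNAs at 4 sites with 24 at 1 base. The 5′ETS and ITS2 had 0 there. 18S, 5.8S, ITS1 and the 3′ETS had no such position, so this setting does not compare mature rRNA with spacers. The share of C at the site was 40.7% weighted by score. Within 5 nt, 12 positions of RNA45SN2 instead of 6 had a site in RNA45SN3. For single parts, 18 of 35 shares and 9 of 10 densities left their intervals. Adding the matching sites of other genes, chosen after seeing the data, kept the ratio within its interval, at 4.45. Shares and densities of the parts were not recalculated with them. No paired analysis was possible because the deposited lists pool the replicates, and leaving out a replicate could not be run for the same reason.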
